A study of Mus musculus with 9 samples.

Results

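Nephron progenitor genes were read from RNA of mouse pups on postnatal day 3 (PND3), in a pool of Glis3 mutant pups and a pool of wild-type (WT) pups. The genes were Six2, Cited1, Eya1, Sall1, Osr1, Meox1, Pax2, Pax8, Wnt4 and Lhx1, chosen by name. All gene probes carrying one of these 10 names on the array were used, which gave 15 probes of 41174, printed as 33 spots on each array. The scanner software marked all 10 genes as well above background in each pool on each array. It did so for 20115 of the 20922 genes measured in at least 1 pool.

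Glis3 belongs to the Krüppel-like zinc finger proteins, and the study was about its role in the developing pancreas and insulin expression. Mice that lack it are also known for cystic kidneys. The mutant pool held RNA of 2 pups homozygous for the Glis3zf mutation, the WT pool RNA of 2 WT pups, all of the C57BL/6 strain, and no other treatment was named. The sources used here do not state which litters the pups came from. From 500 ng of RNA each, both pools were labelled and compared directly on 2 Agilent arrays. The first array had mutant RNA in Cy3 and WT RNA in Cy5, and the second had the dyes the other way round. The series also holds 7 embryonic samples at day 15.5, measured on another array whose probe sets were not paired with gene names here, so the progenitor genes were not analysed at that age. The PND3 arrays measured 1 pool per genotype, so the spread between arrays is technical and no p-value is given.

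The tissue named in the labels is pancreas, but kidney markers were bright and pancreas markers dim. All 12 mature nephron genes on a list of kidney markers passed that mark in both pools, as did 20115 of the 20922 measured genes. The brightest of the 12 was Umod, the uromodulin of the thick limb, with scanner signals of 47875 in the mutant and 50921 in the WT pool. Of 15 pancreas genes, 9 were measured, with a median signal of 43.5 in the mutant and 56.7 in the WT pool. The brightest of them was Ctrb1, a chymotrypsinogen, at 693 and 640.5. Ins1, Gcg, Ppy, Ptf1a, Cela2a and Amy2b were not measured. Only 14 of the 15 had a probe under their name, so not every absence reflects a dim signal. Probes differ in how well they bind, so signals of different genes are no amounts. The values below are given for these pools, without a claim about the tissue they came from. In bulk RNA, fewer cells of a type and less RNA per cell cannot be told apart.

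In the developing kidney, nephrons arise from mesenchymal progenitors that cap the tips of the branching ureteric bud. Six2, Cited1, Eya1, Sall1, Osr1 and Meox1 mark or maintain the progenitor state, whereas Wnt4, Pax8 and Lhx1 come on as progenitors aggregate and turn into epithelial tubules. Pax2 is active in the progenitors, the early tubule and the ureteric bud. In mice the progenitors are used up within days after birth, so PND3 lies near the end of nephron formation.

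The probes are 60 bases long, and those of 3 genes on which the results turn are shown as the array's files give them. Osr1 has a pair of probes whose ratios differed in size, Pax2 has a single dim probe, and the brighter Lhx1 probe was printed as 10 spots, as was that of Pax2. Capitals mark a run of 8 G at bases 17 to 24 of the Pax2 probe.
Osr1 probe A_52_P63728: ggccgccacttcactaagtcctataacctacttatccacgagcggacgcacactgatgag
Osr1 probe A_51_P216652: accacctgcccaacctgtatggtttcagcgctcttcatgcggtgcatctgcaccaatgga
Pax2 probe A_51_P375526: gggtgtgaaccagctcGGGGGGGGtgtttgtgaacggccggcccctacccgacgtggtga
Lhx1 probe A_51_P452119: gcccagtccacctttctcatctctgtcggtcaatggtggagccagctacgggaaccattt
The Osr1 probes share no run longer than 5 bases, so they read separate stretches of the transcript. The Pax2 probe had the only run of 8 or more G among the 41174 gene probes, and 68.3% of its bases were G or C, against a median of 40% over all gene probes. The files give no genome build or position for these probes.

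Differences between the pools were small for every progenitor gene, and 5 of the 6 genes of the progenitor state were higher in the mutant pool on both arrays. None of the 10 was 2-fold apart on both arrays, where 0.191% of all measured genes were, and none was past 0.32 log2 units in the same direction on both, a smaller threshold that 4.78% passed. The ratios ran from 0.38 for Osr1 to -0.25 for Meox1 on the log2 scale, with a median of 0.13 against -0.01 over all measured genes. Taken without sign, the median ratio was 0.18 over the 10 genes, larger than the 0.10 over all measured genes. The sign of the ratio was the same on both arrays for 8 of the 10, against 68.7% of all genes. Of these, 6 were higher in the mutant pool (30.8% of all genes) and 2 were lower (37.9% of all genes). With so few genes chosen by name, these counts describe the genes and test nothing. A measure of technical error was the difference of a gene's ratio between the arrays, with a median of 0.11 over all genes and of 0.09 over the progenitor genes. The scanner software's error of a single ratio was between 0.20 and 0.26 log2 units for the brightest probe of each progenitor gene. Its ratio exceeded that error in the same direction on both arrays for 5 genes, Six2, Eya1, Sall1, Osr1 and Meox1, as it did for 19.9% of all measured genes.

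**Figure D1:**
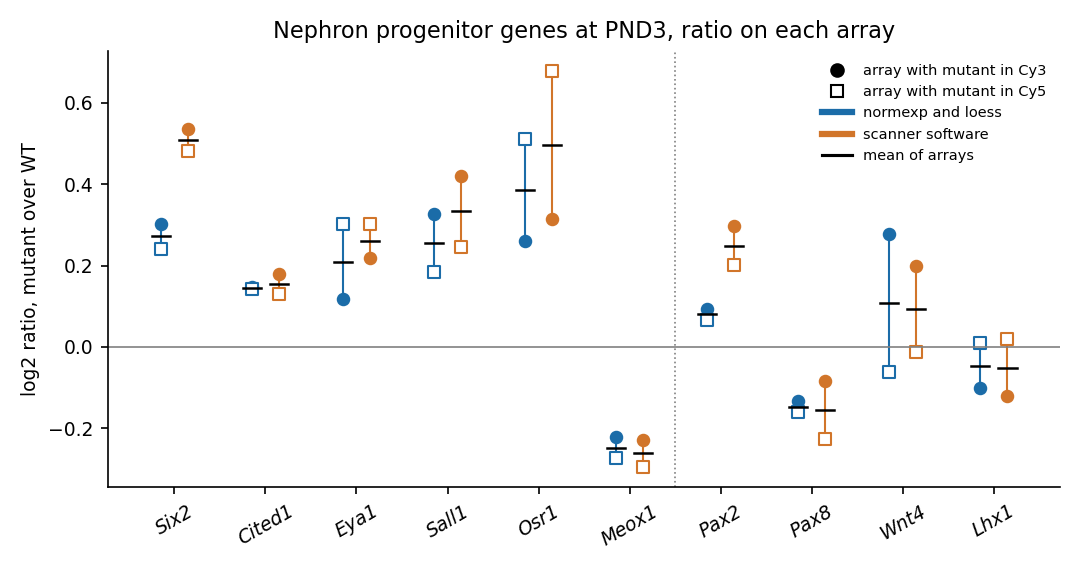
Log2 ratio of mutant over WT on each array for the brightest probe of each gene (circles, mutant in Cy3; squares, mutant in Cy5; black bars, mean), after normexp and loess (blue) and from the scanner software (orange). Genes left of the dotted line mark the progenitor state; 5 of these 6 lie above 0 on both arrays, and Meox1 lies below 0 on both.

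Six2 is the transcription factor that keeps progenitors undifferentiated. Its scanner signal in the mutant pool was 127 on the first array and 113 on the second. In the WT pool it was 87.8 and 80.7. Both mutant signals were above both WT signals. The log2 ratio was 0.30 and 0.24 on the arrays, a mean of 0.27, or 1.21-fold, and 5.64% of measured genes had a higher ratio. From the scanner software the ratio was 0.54 and 0.48, a mean of 0.51, or 1.42-fold, so its size depends on the processing. By those ratios Six2 was the only one of the 10 genes past 0.32 log2 units on both arrays, as were 10.2% of all genes. The offset used with normexp draws ratios of dim probes toward 0, and without it Six2 stood at 0.41.

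Cited1, a transcriptional co-activator restricted to the uninduced progenitors, was much brighter but moved less. Its signal was 1651 and 1366 in the mutant pool and 1458 and 1248 in the WT pool, so that on each array the mutant signal was the higher one while the pools overlapped across arrays. Its log2 ratios lay closest together of the 10 genes, 0.15 and 0.14, with a mean of 0.15 or 1.11-fold. The scanner software gave 0.18 and 0.13, under its own error of 0.20 on each array. With median centring of each array in place of loess, Cited1 stood at -0.03, but under that scaling the all-gene median itself was -0.11, and relative to that median Cited1 was 0.08 higher. For all 10 genes, ratios relative to the median of all genes are given with the processing alternatives.

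Eya1, the phosphatase and co-activator that works with Six2 and its relatives, was read by 2 probes. The brighter gave 593 and 512 in the mutant pool and 509 and 415 in the WT pool. The dimmer gave 39.5 and 43.1 in the mutant pool and 32.99 and 32.6 in the WT pool. On both probes the mutant signal was the higher one on each array. The log2 ratio of the brighter was 0.12 and 0.30, a mean of 0.21, and that of the dimmer 0.07 and 0.17, a mean of 0.12. By the scanner software the order was the other way, with 0.26 for the brighter and 0.33 for the dimmer probe.

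Sall1, a zinc finger repressor needed to keep progenitors in place, gave 372 and 328 in the mutant pool. It gave 278 and 277 in the WT pool, below both mutant signals. The log2 ratio was 0.33 and 0.18, a mean of 0.26 or 1.19-fold, and 6.56% of measured genes had a higher ratio. The scanner software gave 0.33. The first array alone put Sall1 past 0.32 log2 units, and the second did not.

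Osr1, a zinc finger factor of the earliest kidney mesenchyme, had the highest ratio of the 10. Its brighter probe gave 265 and 264 in the mutant pool and 213 and 165 in the WT pool. Both mutant signals were above both WT signals. The log2 ratio was 0.26 and 0.51, a mean of 0.38 or 1.31-fold, and 1.86% of measured genes had a higher ratio. The dimmer probe gave 154 and 189 in the mutant pool and 145 and 154 in the WT pool. Its log2 ratio was 0.08 and 0.18, a mean of 0.13, so both probes put the mutant pool higher while the sizes differed. The mean over both probes was 0.26, and the scanner software gave 0.50 for the brighter and 0.19 for the dimmer.

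Meox1, a homeobox factor found in the same progenitors, ran the other way. Its brighter probe gave 850.0 and 765 in the mutant pool, against 995 and 938 in the WT pool. The pools did not overlap. The log2 ratio was -0.22 and -0.27, a mean of -0.25, which is 1.19-fold lower, and 8.26% of measured genes had a lower ratio. The dimmer probe gave 403 and 324 in the mutant pool and 417 and 382 in the WT pool. It put the mutant pool lower on each array, with ratios of -0.05 and -0.21 and a mean of -0.13. The scanner software gave -0.26 and -0.14 for the 2 probes. Meox1 is also expressed in other mesenchyme, and the part of such cells in its ratio was not tested. The Meox1 paralog Meox2 stood at -0.25, with -0.27 and -0.23 on the arrays.

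**Figure D2:**
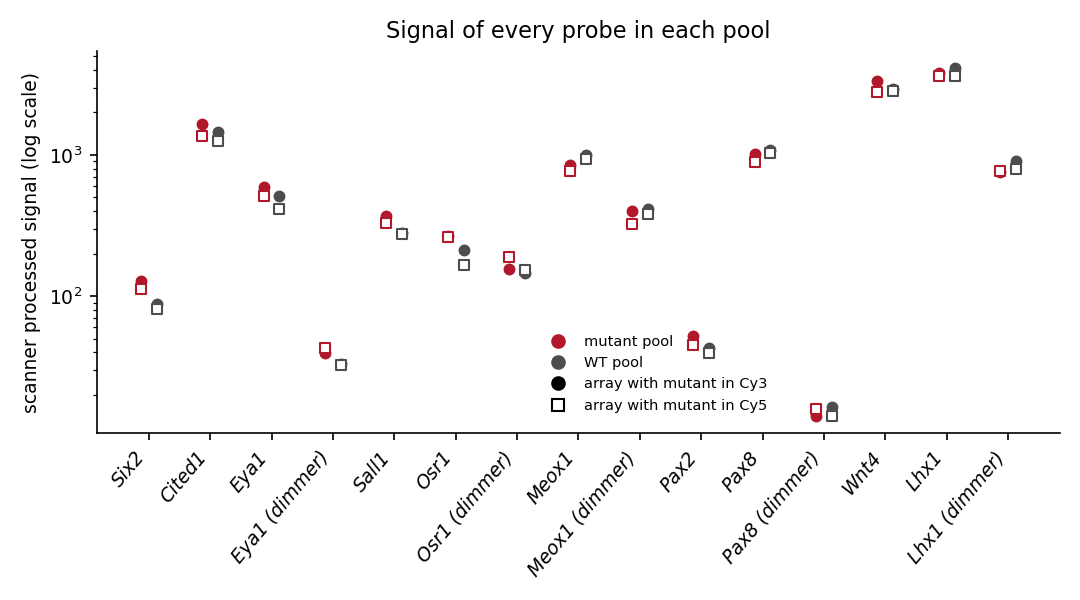
Scanner processed signal of each of the 15 probes (log axis) in the mutant pool (red) and the WT pool (grey), with circles for the first array and squares for the second. Differences between pools are small beside those between probes; the dimmer Pax8 probe is the lowest, between 14.1 and 16.4, and levels of different probes are not comparable.

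The genes of the early tubule showed no common direction. Pax2, a paired box factor of the progenitors and early tubule, gave mean signals over its 10 spots of 52.3 and 45.4 in the mutant pool. In the WT pool they were 42.6 and 39.6. The log2 ratio was 0.09 ± 0.10 (SD over 10 spots) on the first array and 0.07 ± 0.07 (SD over 10 spots) on the second, a mean of 0.08. Of the spots, 9 and 8 were higher in the mutant pool. By the scanner software all 10 spots on each array were higher in the mutant pool, with means of 0.30 and 0.20 and an overall ratio of 0.25. The spots share the same RNA and array, so their spread is that of printing and reading a spot. Among the brightest probes of the 10 genes this one, with the G run shown above, was the dimmest.

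Pax8, a paired box factor switched on with the start of tubule formation, gave 1024 and 885 in the mutant pool and 1085 and 1036 in the WT pool. The log2 ratio was -0.13 and -0.16, a mean of -0.15 or 1.11-fold lower, and the pools did not overlap. The scanner software gave -0.08 and -0.23. A further Pax8 probe gave between 14.1 and 16.4 in the pools and passed the background mark on only 1 array, so no fold is given.

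Wnt4, the secreted signal that drives progenitors into epithelium, gave 3360.1 and 2810.0 in the mutant pool and 2926 and 2833 in the WT pool. It was higher in the mutant pool on one array and about equal on the other. The log2 ratios were 0.28 and -0.06, a mean of 0.11 that lay farther from each array's ratio than from 0. Among the 10 genes Wnt4 had the largest such gap, and the pools overlapped.

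Lhx1, a LIM homeobox factor of the renal vesicle, gave mean signals over 10 spots of 3789.6 and 3654 in the mutant pool and 4121 and 3607 in the WT pool. Its log2 ratio was -0.10 ± 0.06 (SD over 10 spots) on the first array, where 0 of 10 spots were higher in the mutant pool. It was 0.01 ± 0.06 (SD over 10 spots) on the second, where 4 of 10 spots were. The dimmer Lhx1 probe gave 758 and 774 in the mutant pool and 913 and 795 in the WT pool, with ratios of -0.23 and -0.04. Ratios of the brighter probe's spots ran from -0.19 to -0.03 on the first array and from -0.08 to 0.10 on the second, so these ranges overlapped. Neither probe placed Lhx1 higher in the mutant pool on both arrays.

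**Figure D3:**
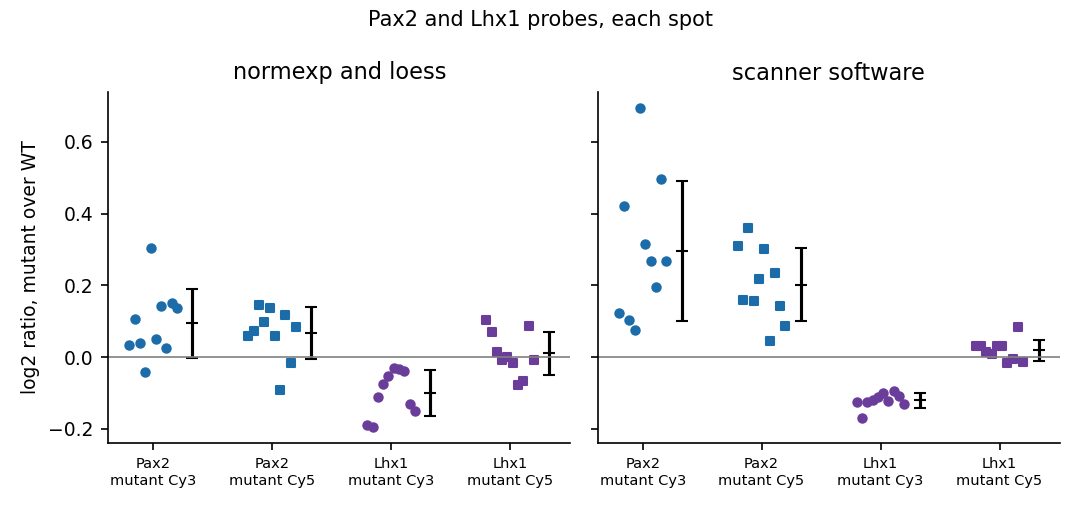
Log2 ratio of mutant over WT for each of the 10 spots of the Pax2 probe (blue) and of the brighter Lhx1 probe (purple) on each array, from left to right by spot number; bars show the mean and SD over spots. Left, normexp and loess; right, scanner software, where all Pax2 spots lie above 0 and Lhx1 spots are more tightly grouped.

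By scanner signal, the pools did not overlap over both arrays for 7 of the 10 genes, against 39.6% of all measured genes. By log2 level of each channel after normalization, Cited1 joined them. For 8 of the 10 genes the mutant and WT levels did not overlap over both arrays, against 60.4% of all measured genes. The mutant level was the higher one for 6 (27.3% of all genes), namely Six2 (7.44 and 7.41 against 7.14 and 7.17), Cited1, Eya1, Sall1, Osr1 and Pax2, and the lower one for 2 (33.2% of all genes), Meox1 and Pax8. For Wnt4 and Lhx1 the levels overlapped. No gene had measured probes with mean ratios on opposite sides of 0.

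By role, the 6 genes of the progenitor state had a median log2 ratio of 0.23. On both arrays 5 were higher (83.3%) and 1 lower (16.7%), against 30.8% and 37.9% of all genes. The 4 genes of the early tubule had a median of 0.017, with 1 higher (25%), 1 lower (25%) and 2 of mixed sign. The higher one was Pax2, which is also active in the progenitors and could have been placed with the genes of the progenitor state. These groups overlap, since Meox1 was the lowest of all 10. Their difference was not tested.

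Of 20 other genes of the cap mesenchyme 18 were measured, with a median of 0.07. On both arrays 10 were higher (55.6%) and 4 lower (22.2%) in the mutant pool, against 30.8% and 37.9% of all genes. With median centring the list's median was -0.11, as was that of all genes. None was past 0.32 log2 units on both. Hoxd11, a positional factor of the kidney mesenchyme, was highest at 0.32, followed by Gdnf, the growth factor that attracts the ureteric bud, at 0.24, with signals of 116 in the mutant and 85.5 in the WT pool. Robo2, a receptor that limits Gdnf expression, was lowest at -0.30.

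Other early nephron genes went both ways. All 20 were measured, with a median of -0.01. On both arrays 8 were higher (40%) and 7 lower (35%), against 30.8% and 37.9% of all genes. Dkk1, a secreted Wnt inhibitor, stood at 0.42, with 0.47 and 0.38 on the arrays, and was the only one of them past 0.32 log2 units on both. Bmper, a modulator of BMP signals, stood at 0.32. Emx2 stood at -0.32 and Dll1, the Notch ligand of the renal vesicle, at -0.31. Wnt4 and Lhx1 lay between these extremes.

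Of 26 paralogs of the progenitor genes 22 were measured, with a median of -0.01 that equals the all-gene median to 2 decimals. On both arrays 5 were higher (22.7%) and 10 lower (45.5%). Eya2 stood at 0.38 beside Eya1 at 0.21, while the Osr1 paralog Osr2 stood at -0.22, with -0.21 and -0.24 on the arrays. Wnt7b, a ligand made by the ureteric stalk, was highest at 0.74 with 0.91 and 0.58 on the arrays. Lhx9 was listed lowest but missed the background mark in the mutant pool, and Meox2 was next. The Sall1 paralogs Sall3 and Sall4 stood at -0.16 and -0.14; these and Osr2 were chosen for mention after their values were seen.

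Neighbouring cells of the nephrogenic zone had medians close to that of all genes. Stromal progenitor genes, which mark the cells around the cap, had a median of -0.04 over 10. On both arrays 3 were higher (30%) and 4 lower (40%), against 30.8% and 37.9% of all genes. Foxd1, the defining factor of these cells, was lowest at -0.28, with -0.29 and -0.28 on the arrays, and Pdgfra followed at -0.24. Sfrp1 and Aldh1a2 were highest at 0.37 and 0.32. Ureteric tip genes had a median of 0.00 over 8, with Gata3 at 0.54, Etv4 at 0.38, Sox9 at -0.24 and Wnt9b, the signal that induces progenitors, at -0.20. Mature nephron genes had a median of 0.00 over 12, with Aqp2, the water channel of the collecting duct, at 0.49, Nphs1 at 0.20, Slc12a1 at -0.20 and Lrp2 at -0.17.

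Many markers of ovary, fat and leukocytes were lower in the mutant pool. Summed over the 11 ovary and oocyte genes measured, the signal ran from 778 to 907 in the mutant pool and from 3090 to 3398 in the WT pool over the arrays. Of these genes, 7 were at least 2-fold lower in the mutant pool on both arrays, against 0.191% of all genes in either direction. Some of those 7 missed the background mark in the mutant pool and were measured only through the WT pool, where they were high. The count and the sums, which include such genes, are therefore no support for a difference. Of the 11, a different set of 7 passed the mark in both pools. The lowest with signal above background in both pools were Padi6 at -2.46 and Zp3 at -1.92. In the same list Fst stood at 0.31 and Foxl2 at 0.10, both higher on both arrays, and Inha at -0.04. The list's median was -1.34, and also -1.34 over only the genes that passed the mark in both pools. It was -3.03 with the scanner's ratios and -2.57 without the offset, where genes measured only through the WT pool are included. Fat genes were lower on both arrays in 7 of 7, where 37.9% of all genes were, with a median of -0.85, or -0.56 with the file's gene names or with no filter. Their summed signals were 53218 to 57052 in the mutant and 62836 to 69327 in the WT pool. Most of that sum was Fabp4, with mean signals of 49791 and 56998 and a ratio of -0.20, so it does not show the list's change. Leukocyte genes were lower in 5 of 7, with sums of 22031 to 23724 and 26223 to 29075, most of it Lyz2 at 16950 and 20635. Wnt4 is also made in the ovary, and Lhx1, Pax2 and Pax8 in the ducts of the reproductive tract. The part of such tissue in the ratios of the progenitor genes was not tested.

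**Figure D4:**
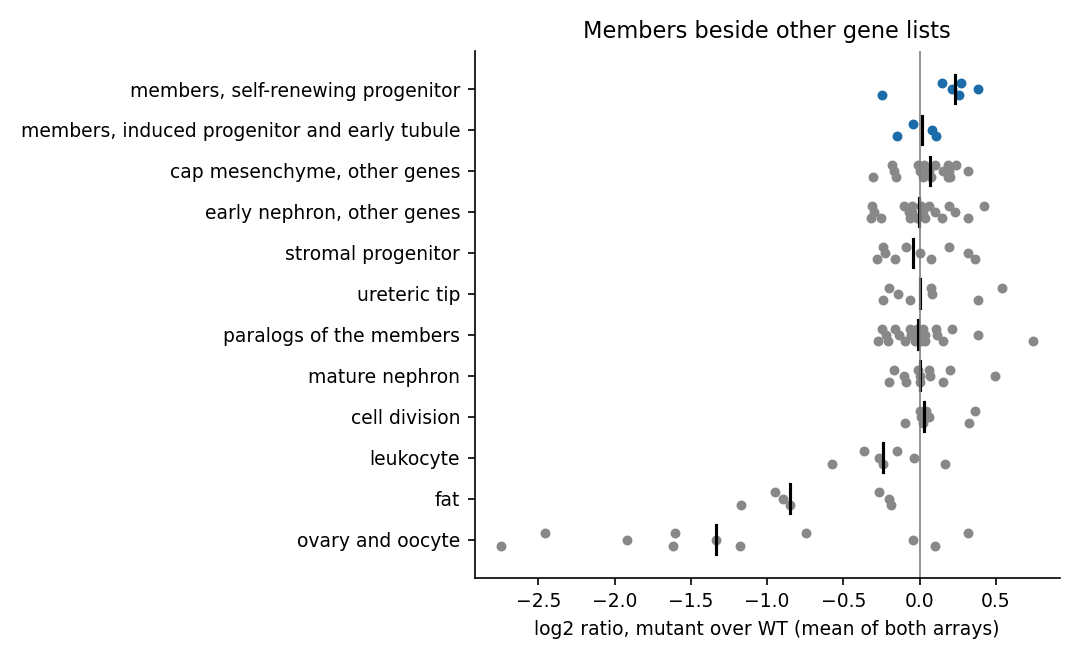
Log2 ratio of mutant over WT (mean of both arrays) for each measured gene of the progenitor and early tubule genes (blue) and of other lists (grey), with black bars at list medians. The progenitor state genes have a median of 0.23 and the other kidney lists lie between -0.04 and 0.07, while fat and ovary genes have medians of -0.85 and -1.34. Some of the ovary genes were measured only through the WT pool.

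**Figure D5:**
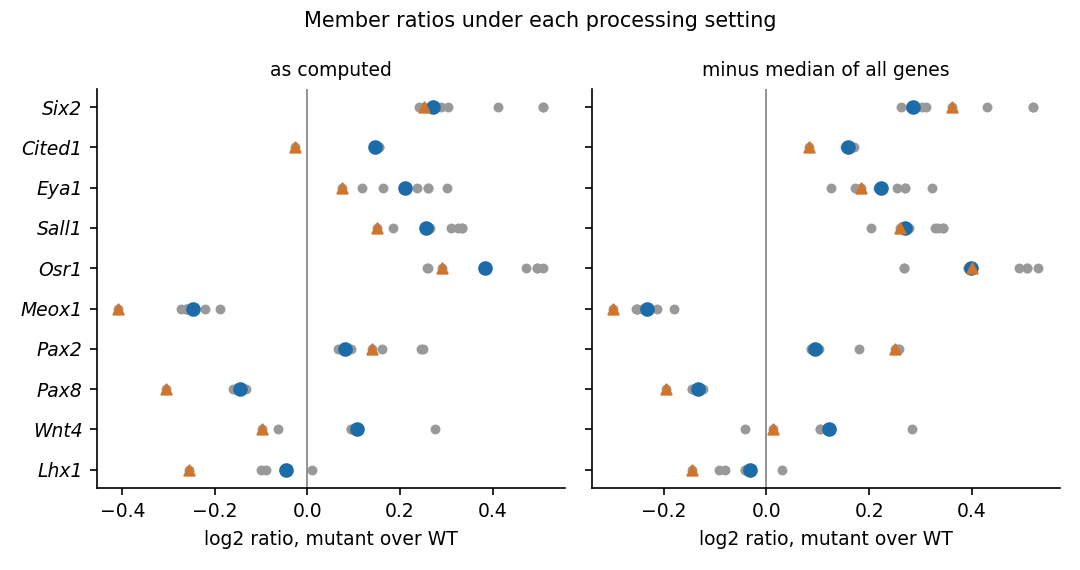
Log2 ratio of each gene under the reported setting (blue), median centring (orange triangles) and the other 10 settings (grey), as computed on the left and minus the median of all measured genes on the right. Six2, Cited1, Eya1, Sall1, Osr1 and Pax2 lie above 0 and Meox1 and Pax8 below 0 in every setting on the right.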

How the data were processed

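Per the file headers, each PND3 array file gives mean spot intensity and local background for each dye, with processed signals that the software subtracted for background, detrended and dye-normalized. Per the file headers, their ratio and its error are log10 of Cy5 over Cy3. Flags for outliers, saturation and signal well above background were used as deposited. The authors' value table was deposited as log2 ratios, which were found to run as mutant over WT on both arrays (r with the scanner ratio 0.9996 and 0.9997). Agilent Feature Extraction is given as 8.1 in the submitters' processing notes and as 9.1.3.1 in the file headers.

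With R 4.3.3 and limma 3.58.1, background was corrected by normexp (offset 50), each array's ratios were loess-normalized (control spots given no weight) and turned to mutant over WT. Channel levels followed loess and Aquantile. Outlier spots (18 and 26 of 43379 per array) were dropped, and saturation affected none of the gene spots. Spots of a probe were averaged. Each gene was represented by its brightest probe that passed the background mark on both arrays in at least 1 pool. Symbols were updated by accession through a RefSeq table for GRCm38.p6, which matched 22951 of 41174 probes and left the 15 probe names here unchanged. Per channel, 72.8% to 76.6% of spots passed that mark. The script was tested on simulated arrays.

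The genes, the other gene lists and all thresholds were chosen with earlier results of these data known. All 10 genes are named; of each other list, the 2 highest, the 2 lowest and genes 2-fold apart were named, as was the brightest pancreas and mature nephron gene; exceptions are marked, and 1 gene the rule names is not reported here. Likeness between genes was not computed, since 1 pool per genotype gives no pattern over samples. The embryonic table was not used, as no table paired its probe sets with genes.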

Additional observations from a re-analysis of the deposited data

How the results depend on the processing

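Ratios of the 10 genes were recomputed under 11 alternatives, and none of the 10 was past 0.32 log2 units on both arrays in the reported setting. With the scanner software's ratios, with the value table and without the offset, 1 gene was (Six2 in each), and each array alone gave 1 (Sall1 or Osr1). The median over the 10 genes was 0.20 with the value table and with the scanner's ratios, 0.16 without the offset and 0.023 with median centring, and 0.105 to 0.13 with 1 array. For the progenitor state genes it was 0.30 with each of these, 0.27 without the offset, 0.11 with median centring, 0.21 with the mean over probes and 0.20 to 0.21 with 1 array. For the early tubule genes it was -0.18 with median centring, -0.0049 with the mean over probes, and -0.026 to -0.0032 with 1 array. Over all genes, 40 were 2-fold apart, against 175 with the scanner's ratios, 175 with the value table, 100.0 without the offset and 48 to 59 with 1 array. Past 0.32 log2 units, 1001 became 2126 with the scanner's ratios, 2126 with the value table, 2185 with median centring, 1650.0 without the offset and 1859 to 2519 with 1 array. What caused these shifts was not tested. Signs turned for Cited1 (-0.03) and Wnt4 (-0.10) with median centring, under which the all-gene median was -0.11. They also turned for Wnt4 (-0.06) and Lhx1 (0.01) on the second array alone, and not for Six2, Eya1, Sall1, Osr1, Meox1, Pax2 or Pax8 under any alternative run. Relative to the median of all genes, Six2 ran from 0.26 to 0.52, Osr1 from 0.27 to 0.53, Sall1 from 0.20 to 0.34, Eya1 from 0.13 to 0.32, Cited1 from 0.08 to 0.17, Pax2 from 0.09 to 0.26, Meox1 from -0.30 to -0.18, Pax8 from -0.20 to -0.12, Wnt4 from -0.04 to 0.28 and Lhx1 from -0.15 to 0.03. Signal near background limits Six2, Pax2 and the dimmer Eya1 and Pax8 probes. No paired analysis was possible because the PND3 values come from no test, and the embryonic samples that share replicate numbers were not analysed here; the alternatives for them were not run.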

Other observations

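Cell division genes had a median log2 ratio of 0.03 over 8, with Top2a at 0.36, Plk1 at 0.32, Bub1 at -0.09 and Aurkb at -0.00. Testis genes had a median of -0.11 over 9, with Cyp17a1 at 0.19, Dhh at 0.03, Hsd3b1, a steroid enzyme, at -0.59 and Ddx4, a germ cell helicase, at -0.25. Adrenal cortex genes had a median of -0.02 over 6, with Nr5a1 at 0.26, Cyp21a1 at 0.02, Hsd3b1 at -0.59 and Star at -0.11. Pancreas genes had a median of -0.01 over 9, with Ctrb1 at 0.08, Pdx1 at 0.07, Cpb1 at -0.25 and Cpa1 at -0.19. Lower in the mutant pool and past 0.32 log2 units on both arrays were 4 of 7 fat genes, 1 of 7 leukocyte genes (Tyrobp) and Hsd3b1. So were 8 of 11 ovary genes, some of them measured only through the WT pool. Higher in the mutant pool and past that threshold on both arrays were Gata3, Wnt7b, Aqp2 and Dkk1. Of all genes, 4.78% passed it in either direction. Fat genes had a median of -0.85, with Ucp1 at -1.17 and Cidea at -0.95, and leukocyte genes a median of -0.24, with Tyrobp at -0.58, Fcer1g at -0.37 and Csf1r at 0.16.

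The 10 spots of the brighter Lhx1 probe had an SD of 0.06 log2 units on each array after normexp and loess, against 0.02 and 0.03 in the scanner software's ratios. For the 10 Pax2 spots the SD was 0.10 and 0.07 after normexp and loess and 0.19 and 0.10 in the scanner's ratios. The brighter probe was tighter in the scanner's ratios, and the dim probe was tighter after normexp and loess with the offset.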
